A study of Mus musculus with 9 samples.

Results

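Meiotic cohesin and recombination genes were followed in E14 mouse embryonic stem cells (ESCs) after siRNA knockdown of Dppa2 or Dppa4. The set was fixed by name and holds 10 genes (Stag3, Rec8, Smc1b, Rad21l, Dmc1, Spo11, Mei1, Meiob, Msh4, and Msh5) of the 25965 genes in the table. A row was found for 9 of them under the name itself, and for Meiob under its older symbol 4930528F23Rik, a synonym in RefSeq at the same place. The cells (129/Ola background, serum and LIF without feeders) received control, Dppa2, or Dppa4 siRNA at 0 and 48 h and were collected at 96 h (4 d), with 3 libraries of polyadenylated RNA per treatment, called A, B, and C. The knockdowns are transient and were made in 1 cell line, which the study describes as ESCs with MERVL::tdTomato and Zscan4c::eGFP reporters. The study describes its replicates of this experiment as biological, and the labels do not say whether they were separate cultures, so the p-values measure the spread between these libraries.

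Cohesin is the ring complex that holds sister chromatids together. In germ cells entering meiosis, the subunits STAG3, REC8, RAD21L, and SMC1B take the places of STAG1 or STAG2, RAD21, and SMC1A, and the chromosomes are then cut on purpose so that homologs can exchange DNA. SPO11 makes the breaks and MEI1 is needed for them, DMC1 pairs the resected ends with the homolog, MEIOB binds the single-stranded DNA, and the MSH4 and MSH5 pair protects the joints that become crossovers. ESCs do not undergo meiosis, but they are known to transcribe some of these germline genes at low levels.

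The set held genes with clear RNA in ESCs, genes with little RNA (Meiob, Msh4, and Msh5), and genes with almost none. No member passed the test in either knockdown. Stag3 lay a little higher in both knockdowns, by 1.29-fold after Dppa2 knockdown and 1.44-fold after Dppa4 knockdown, and Dmc1 by 1.25-fold and 1.28-fold, but these differences did not remain after adjustment over all genes. Rad21l and Spo11 were at or near 0 reads in every library. Among the somatic cohesin genes, none passed the test either.

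The promoters of 4 members are shown as examples. Stag3 and Dmc1 are the 2 members whose 3 libraries lay above the control libraries in both knockdowns. Of all tested genes, 9.57% with Dppa2 siRNA and 13.7% with Dppa4 siRNA lay wholly above control. The share that did so in both was not worked out. Smc1b is a cohesin subunit with clear RNA, and Rad21l is a cohesin subunit with almost none. Each promoter is the RefSeq window of 300 bases, 250 before and 50 after the start of the gene in RefSeq. The windows are on the GRCm38.p6 build and written 5′ to 3′, with each CpG in capitals. Stag3 is at chr5:138280259-138280558 (+), Dmc1 at chr15:79605060-79605359 (-), Smc1b at chr15:85131908-85132207 (-), and Rad21l at chr2:151668484-151668783 (-).
Stag3: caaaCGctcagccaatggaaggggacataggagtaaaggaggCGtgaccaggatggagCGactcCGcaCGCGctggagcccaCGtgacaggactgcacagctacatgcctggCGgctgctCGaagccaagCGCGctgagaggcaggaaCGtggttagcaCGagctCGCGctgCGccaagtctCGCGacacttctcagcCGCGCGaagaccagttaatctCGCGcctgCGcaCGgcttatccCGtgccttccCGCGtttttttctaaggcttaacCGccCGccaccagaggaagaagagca
Dmc1: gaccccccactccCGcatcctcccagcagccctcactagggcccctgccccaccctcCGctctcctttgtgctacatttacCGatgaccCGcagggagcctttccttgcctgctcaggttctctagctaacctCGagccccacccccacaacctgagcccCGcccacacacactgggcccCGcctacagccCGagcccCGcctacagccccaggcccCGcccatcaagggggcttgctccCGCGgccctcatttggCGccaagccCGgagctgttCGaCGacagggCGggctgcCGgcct
Smc1b: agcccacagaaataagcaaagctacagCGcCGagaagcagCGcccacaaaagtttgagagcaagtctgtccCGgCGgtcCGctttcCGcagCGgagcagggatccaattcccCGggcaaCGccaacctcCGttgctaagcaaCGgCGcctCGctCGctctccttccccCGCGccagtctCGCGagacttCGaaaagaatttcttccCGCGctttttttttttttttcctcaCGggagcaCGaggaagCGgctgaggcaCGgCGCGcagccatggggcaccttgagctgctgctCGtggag
Rad21l: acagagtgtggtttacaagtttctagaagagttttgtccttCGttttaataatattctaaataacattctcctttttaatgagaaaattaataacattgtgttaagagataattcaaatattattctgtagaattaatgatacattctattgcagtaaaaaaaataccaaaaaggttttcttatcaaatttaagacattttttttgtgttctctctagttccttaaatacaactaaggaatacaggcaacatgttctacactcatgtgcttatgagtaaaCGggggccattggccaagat

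Windows were at hand for 8 of the 10 members. Stag3 held 30 CpGs, more than 88.3% of the 32851 promoter windows of the genome, Smc1b 29, and Msh5 27. Rec8 and Dmc1 held 18 each, Mei1 8, Msh4 6, and Rad21l 2, against a median of 7 and quartiles of 3 and 20 over all windows. The windows of Mei1 (chr15:82082226-82082525, +) and Msh4 (chr3:153904842-153905141, -) lie inside the genes as measured here. The CpG counts of Mei1 and Msh4 therefore do not describe the start of the measured gene. The Stag3 window (chr5:138280259-138280558, +) also lies inside its gene as measured, close to the measured start at 138280240. It holds no base before that start. The 4 members with the most RNA (Stag3, Dmc1, Rec8, and Smc1b) each held at least 18 CpGs, and Rad21l held the fewest of the 8. Msh5, with little RNA (mean log2 of -0.51 in control), held more CpGs than Dmc1 or Rec8. Whether CpG number goes with RNA level was not tested. The core motif of E2F factors (GGCGGGA, either strand, which itself holds a CpG) was found in 1 of the 8 windows, that of Msh5, with 2 matches, and in 11.3% of all windows. The E-box CACGTG, which also holds a CpG, was found in 1 window, that of Stag3, starting at position 81 from its 5′ end, and in 7.15% of all windows.

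The depth of the libraries, inferred from the values, was 20.7 to 39.7 Mreads on genes with control siRNA, 16.8 to 26.7 Mreads with Dppa2 siRNA, and 21.2 to 30.4 Mreads with Dppa4 siRNA. The targeted genes fell in the libraries labelled for them. Dppa2 fell by 3.49 on the log2 scale with Dppa2 siRNA (limma, adjusted p = 2.13e-05) and Dppa4 by 0.93 with Dppa4 siRNA (adjusted p = 0.000281). The study also reported less Dppa2 protein after Dppa4 siRNA, at an unchanged Dppa2 mRNA level. It reported a smaller loss of Dppa4 protein after Dppa2 siRNA, so the knockdowns are not separate at the protein level. Markers of ESCs did not pass the test in any of 7 cases in either knockdown, between -0.28 and 0.23 on the log2 scale, whereas all 7 tested markers of 2-cell-like cells, the rare ESCs that resemble the early embryo, fell in both, with log2 differences from -6.94 to -5.31 and from -7.38 to -5.43. In RNA from whole cultures, fewer cells of a type and less RNA per cell cannot be told apart. Of 6 fibroblast markers, 3 were tested and none passed, and of the 3 spermatid markers Tnp1, Prm1, and Prm2 no read was inferred in any library. The libraries of a treatment also stood apart from each other in many genes at once. Rad21, for example, was at 7.95, 7.38, and 6.09 on the log2 scale in control libraries A, B, and C.

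Stag3 (chr5:138280240-138312393, +, ENSMUSG00000036928) was the most abundant member. Its log2 expression was 4.79, 4.79, and 4.41 in control libraries A, B, and C, where 588 to 1540 reads lay behind each value. It was 4.89, 5.25, and 4.95 with Dppa2 siRNA and 5.16, 5.22, and 5.20 with Dppa4 siRNA. All 6 knockdown libraries lay above all 3 control libraries. The log2 difference from control was 0.36 for Dppa2 siRNA (SE 0.14, 95% interval 0.05 to 0.68, limma adjusted p = 0.23) and 0.53 with Dppa4 siRNA (SE 0.14, 0.22 to 0.84, adjusted p = 0.0794). Neither difference passed the threshold of 0.05 after adjustment over the 14601 tested genes, although the unadjusted limma p was 0.0263 and 0.00401.

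REC8 is the kleisin, the subunit that closes the ring, and Rec8 (chr14:55618037-55625395, +) was the most variable of the well-expressed members. Its log2 expression was 1.95, 2.43, and 2.56 in the control libraries, 2.81, 1.78, and 2.65 with Dppa2 siRNA, and 2.32, 1.87, and 1.59 with Dppa4 siRNA. The 3 treatments overlapped. The spread within the Dppa2 libraries (SD 0.55, n = 3) was larger than either difference from control, which was 0.10 (95% interval -0.58 to 0.78) and -0.38 (-1.07 to 0.30). Counts of 75 to 305 reads per library lay behind these values.

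SMC1B takes the place of SMC1A in the ring, and Smc1b (chr15:85064691-85131957, -) was at 1.81, 1.49, and 1.95 in the control libraries. It was at 1.55, 1.62, and 2.03 with Dppa2 siRNA, which overlapped control, and at 1.49, 1.48, and 1.37 with Dppa4 siRNA, where all 3 libraries lay just below the lowest control library. The log2 difference was -0.01 with Dppa2 siRNA (95% interval -0.42 to 0.39) and -0.30 with Dppa4 siRNA (-0.70 to 0.10, limma adjusted p = 0.438).

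RAD21L is the other meiotic kleisin, and Rad21l (chr2:151645404-151668533, -) had 2 reads in control library A and none elsewhere. A count of 0 allows up to 3 reads per library, so no comparison was detectable at this depth. Of the 4 meiotic cohesin subunits, RNA was thus clearly measured for Stag3, Rec8, and Smc1b.

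**Figure D1:**
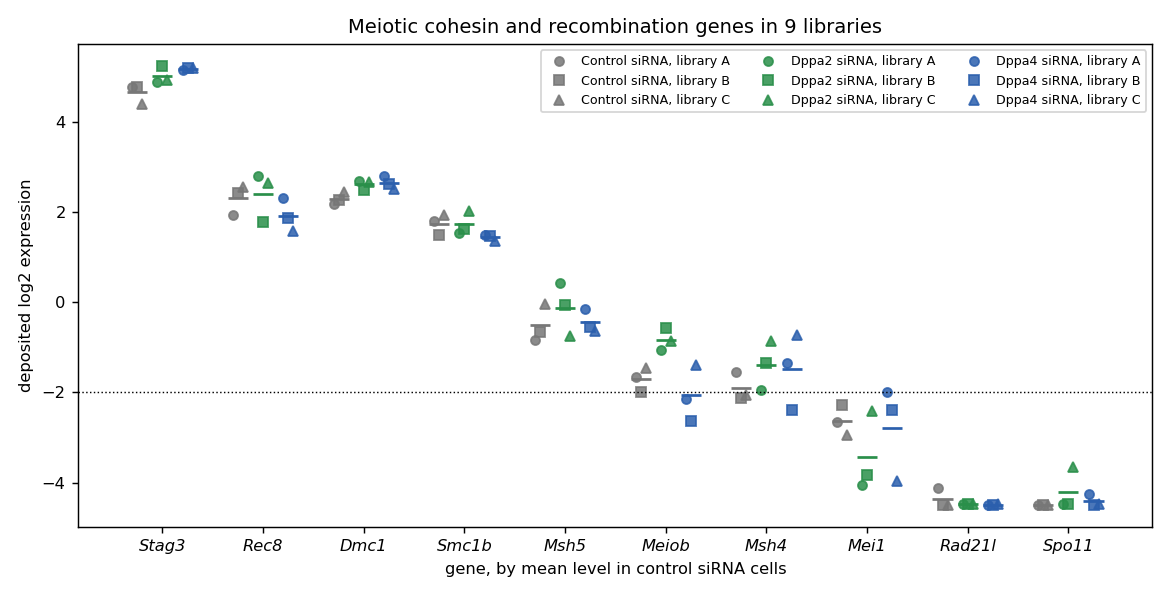
Deposited log2 expression (vertical axis) of the 10 genes in each of the 9 libraries, grey for control, green for Dppa2, and blue for Dppa4 siRNA, with a short line at each mean and a dotted line at -2, the level a tested gene had to exceed in 3 libraries. Stag3 lies near 5, Rec8, Dmc1, and Smc1b lie near 2, and Rad21l and Spo11 lie at the lowest value of nearly every library.

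Among the recombination members, Dmc1 (chr15:79561500-79605084, -) had the most RNA. Its log2 expression was 2.18, 2.29, and 2.45 with control siRNA, 2.70, 2.50, and 2.68 with Dppa2 siRNA, and 2.82, 2.64, and 2.52 with Dppa4 siRNA. Every knockdown library lay above every control library. The log2 difference was 0.32 with Dppa2 siRNA (SE 0.13, 95% interval 0.02 to 0.62, limma adjusted p = 0.273) and 0.35 with Dppa4 siRNA (SE 0.13, 0.06 to 0.65, adjusted p = 0.199), which did not pass.

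The members that act in break formation, Spo11 and Mei1, were close to absent. Spo11 (chr2:172977700-172993576, +) had 1 read in Dppa2 library C, 1 read in Dppa4 library A, and none in the other 7 libraries. Mei1 (chr15:82069996-82126814, +) had 6, 14, and 4 reads in the control libraries, 1, 1, and 3 with Dppa2 siRNA, and 8, 6, and 1 with Dppa4 siRNA. Mei1, Spo11, and Rad21l did not reach the level for testing, and their values are given without a test.

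Meiob (chr17:24804382-24839787, +) was low and was the member with the largest difference. Its log2 expression was -1.67, -1.997, and -1.45 with control siRNA, -1.05, -0.57, and -0.86 with Dppa2 siRNA, and -2.15, -2.63, and -1.39 with Dppa4 siRNA, with 5 to 17 reads per library. The Dppa2 libraries lay above all other 6 libraries. The log2 difference was 0.88 with Dppa2 siRNA (SE 0.37, 95% interval 0.04 to 1.71, limma adjusted p = 0.292) and -0.35 with Dppa4 siRNA (-1.19 to 0.49, adjusted p = 0.717). Between the knockdowns Meiob was lower with Dppa4 siRNA by 1.23 on the log2 scale (95% interval -2.07 to -0.39, limma adjusted p = 0.654), a difference that did not pass. On estimated reads scaled to the total of each library, a scaling added after seeing the data, the Dppa2 difference of Meiob from control was 0.38, and with a pseudocount of 1 it was 0.26.

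The MutS homologs were also low. Msh5 (chr17:35028605-35046745, -) was at -0.83, -0.66, and -0.03 in the control libraries, at 0.44, -0.05, and -0.74 with Dppa2 siRNA, and at -0.15, -0.54, and -0.62 with Dppa4 siRNA. Msh4 (chr3:153857147-153906138, -) was at -1.54, -2.13, and -2.06, then at -1.94, -1.33, and -0.86, and at -1.34, -2.39, and -0.72, in the same order. For both genes the treatments overlapped. The log2 differences of Msh5 were 0.39 (95% interval -0.39 to 1.17) and 0.07 (-0.71 to 0.85), and those of Msh4 were 0.53 (-0.55 to 1.61) and 0.42 (-0.65 to 1.502), with Dppa2 and Dppa4 siRNA. Msh4 RNA rested on 6 to 15 reads per library, and 1.38% of its transcript stretches of 50 bases also occur in other genes, against 0% for the other 9 members.

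Of the 7 members tested, 0 were high-confidence with Dppa2 siRNA, that is past an adjusted p of 0.05 in limma and past the intensity difference filter, which compares a difference with those of genes of like expression. The background was 1.91% of all tested genes. By limma alone 0 members were called, against 3.44%, and at an unadjusted p under 0.05 there were 3 (Stag3, Dmc1, and Meiob, all higher), against 15.7%. The Dppa2 libraries lay wholly above control for 3 members and wholly below for 0, against 9.57% and 8.20% of tested genes. With Dppa4 siRNA 0 members were high-confidence (background 1.95%) and 0 were called by limma alone (3.44%). There, 2 members (Stag3 and Dmc1, both higher) had an unadjusted p under 0.05 (18.0% of tested genes), 2 lay wholly above control (13.7%), and 1, Smc1b, lay wholly below (10.2%). Between the knockdowns 0 members were high-confidence (background 0.0205%) and 1, Meiob, had an unadjusted p under 0.05 (6.76%). Both knockdowns were compared with the same 3 control libraries, so the place of Stag3 and Dmc1 in both comparisons is not independent. The share of all tested genes wholly above control in both was not worked out. The median log2 difference of the 7 was 0.36 for the Dppa2 knockdown and 0.07 for the Dppa4 knockdown, beside 0.02 and 0.03 for all tested genes.

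**Figure D2:**
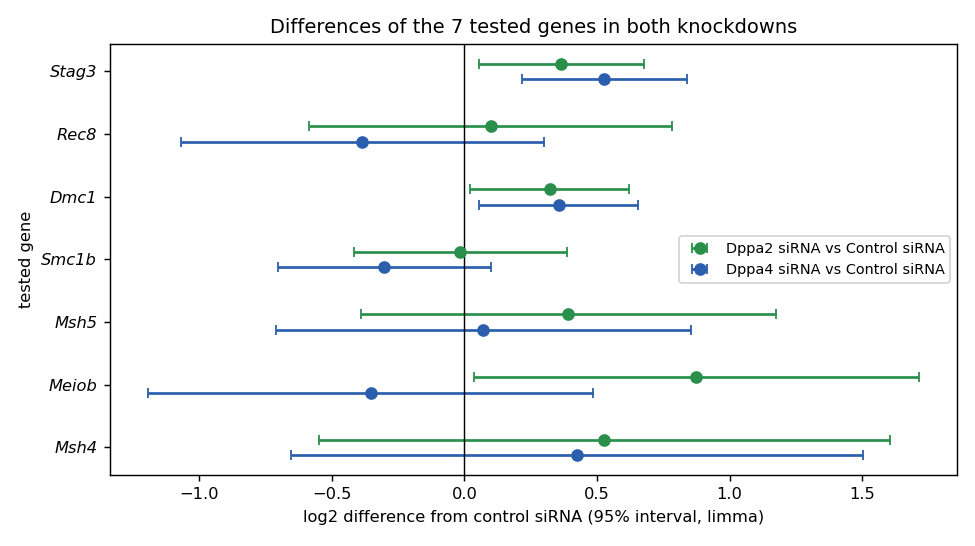
Log2 difference from control siRNA (horizontal axis) for the 7 tested genes, with the 95% interval from limma, green for Dppa2 and blue for Dppa4 siRNA. The intervals of Stag3 and Dmc1 lie above 0 in both knockdowns and that of Meiob in the Dppa2 knockdown, before adjustment over all genes.

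**Figure D3:**
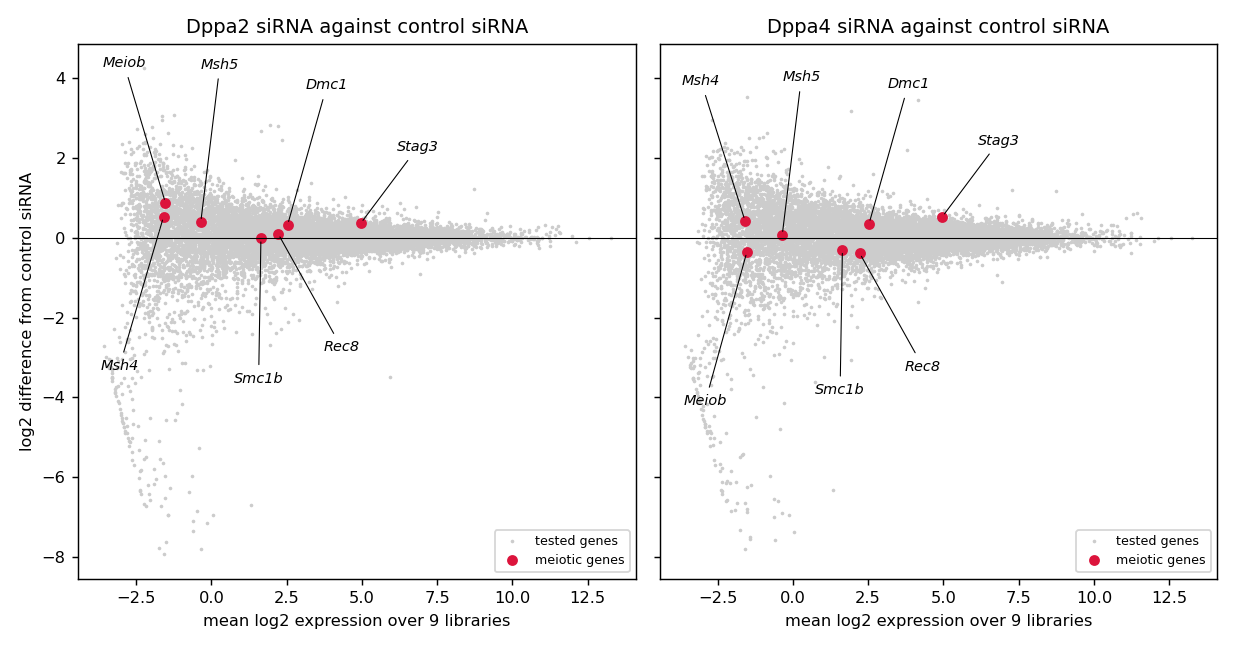
Log2 difference from control siRNA (vertical axis) against mean log2 expression over the 9 libraries (horizontal axis) for all 14601 tested genes (grey) and the 7 tested members (red). The members lie within the band of the other genes, and Stag3, 0.36 and 0.53 above control, lies near the upper edge at its expression. Stag3 passed the intensity difference filter in both knockdowns but not limma.

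Scaled to the summed length of annotated exons, the order of the control means was Stag3 at 2.15 ± 0.22 log2 per kb (SD, n = 3), Dmc1 at 1.02 ± 0.13, Rec8 at 0.76 ± 0.32, and Smc1b at -0.27 ± 0.23. They were followed by Meiob at -2.55 ± 0.28, Msh5 at -2.97 ± 0.42, Msh4 at -4.69 ± 0.32, and Mei1 at -4.88 ± 0.34. Dmc1 overlapped Rec8, Meiob overlapped Msh5, and Msh4 overlapped Mei1 across the control libraries. Rad21l and Spo11, at the lowest value, were not ordered. Per kb, therefore, Stag3 stood above every other member in each control library.

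In ESCs the meiotic subunits are transcribed beside their somatic relatives, so the level per kb of each was set against those. The comparison was added after the values had been seen and carries no test. Stag3 made up 30.9%, 39.0%, and 36.1% of the summed level of Stag1, Stag2, and Stag3 in the control libraries, 43.2%, 40.4%, and 42.2% with Dppa2 siRNA, and 51.8%, 48.9%, and 44.3% with Dppa4 siRNA. The 3 treatments did not overlap in this share, but how often such shares of other genes separate was not worked out. The share moved with the differences of Stag3 and with those of Stag1 and Stag2 (-0.30 and -0.19 on the log2 scale with Dppa4 siRNA, neither past the test). It also depends on the exon lengths used. Stag2 itself varied within control, at 5.71, 5.001, and 4.65 on the log2 scale in libraries A, B, and C. Smc1b was a small part of the summed level of Smc1a and Smc1b, at 3.51% ± 0.58 (SD, n = 3) in control, 3.45% ± 0.53 with Dppa2 siRNA, and 3.05% ± 0.29 with Dppa4 siRNA. Rec8 varied most against Rad21, from 2.19% to 11.1% in the control libraries alone.

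**Figure D4:**
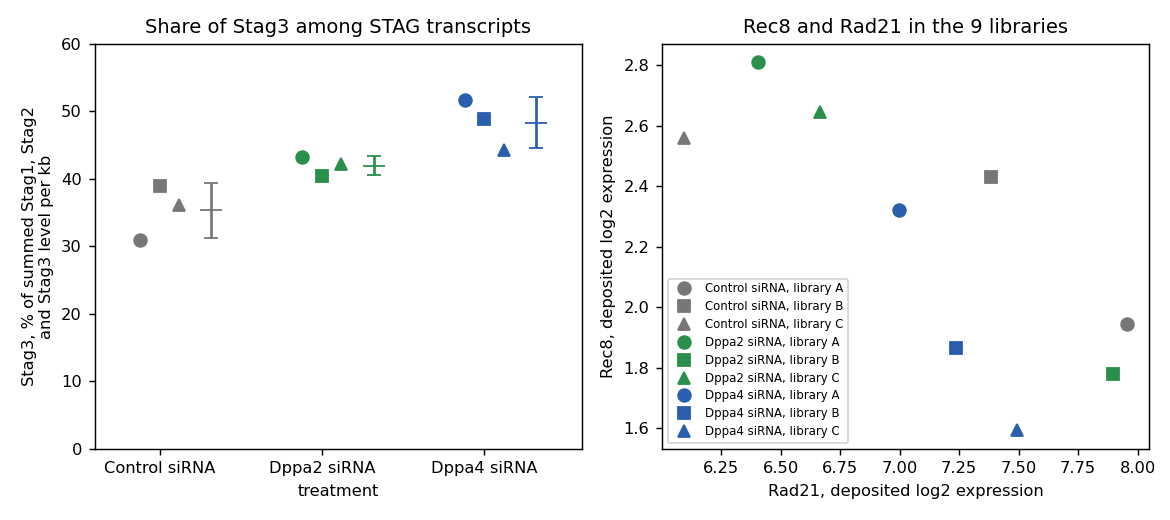
Left, the share of Stag3 in the summed level per kb of Stag1, Stag2, and Stag3 (vertical axis, %) by treatment, each symbol 1 library and the bar the mean and SD. Right, log2 expression of Rec8 (vertical axis) against Rad21 (horizontal axis) in the 9 libraries. The share lies at 30.9% to 39.0% in control and 44.3% to 51.8% with Dppa4 siRNA, and Rec8 is lowest in the library with the most Rad21 in each treatment, an order that other genes of these libraries share.

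None of the 11 somatic cohesin genes (core subunits, loaders, release and protection factors) was called in either knockdown. At an unadjusted p under 0.05 limma gave 0 with Dppa2 siRNA and 1, Stag1, with Dppa4 siRNA. The background was 15.7% and 18.0% of all tested genes. The log2 differences of the 11 somatic genes ran from -0.20 to 0.05 and from -0.30 to 0.13. Among the closest relatives, Rad21 differed by -0.15 and 0.10 and Smc1a by 0.01 and -0.10 on the log2 scale with Dppa2 and Dppa4 siRNA, neither past the test.

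Other genes of meiotic recombination spread more widely, and their differences had a larger error. The median SE was 0.24 for them and 0.14 for the whole somatic list, which also holds repair genes. Of 28 with a row, 24 were tested, and 2 were high-confidence in each knockdown, or 0 in each when control library B was left out. With all libraries, the background was 1.91% of tested genes with Dppa2 siRNA and 1.95% with Dppa4 siRNA. Tex11, an X-linked gene of crossover formation, fell in both. Its log2 expression was 2.02, 2.12, and 2.09 in control, 0.41, 1.01, and 1.19 with Dppa2 siRNA, and 0.98, 1.11, and 1.21 with Dppa4 siRNA, so that both knockdowns lay wholly below control. The fall was 1.20 (SE 0.20, limma adjusted p = 0.0136) and 0.97 (SE 0.20, adjusted p = 0.0354).

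Cntd1, a cyclin-like gene that acts late in crossover formation, rose with Dppa2 siRNA by 1.501 on the log2 scale (SE 0.25, limma adjusted p = 0.0129). Its expression was 0.41, 0.43, and -0.35 in control, 1.69, 1.32, and 1.98 with Dppa2 siRNA, and 1.20, 1.17, and 1.33 with Dppa4 siRNA, where the difference of 1.07 had an adjusted p of 0.0558 by limma. The reads were assigned by strand, and Cntd1 overlaps Coa3 and Becn1 on the other strand. Hormad2, an axis protein of unsynapsed chromosomes, rose with Dppa4 siRNA by 1.002 (SE 0.21, limma adjusted p = 0.0373). With Dppa2 siRNA it differed by 1.01 and passed limma (adjusted p = 0.0367) but not the intensity difference filter.

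Spata22 encodes the partner of MEIOB on single-stranded DNA. Its log2 expression was 0.94, 0.59, and 0.67 in control, -0.86, -0.32, and -1.495 with Dppa2 siRNA, and -0.38, -0.42, and 0.34 with Dppa4 siRNA. The Dppa2 difference of -1.63 (SE 0.33) passed limma (adjusted p = 0.0342) but not the intensity difference filter, and the Dppa4 difference of -0.89 passed neither (limma adjusted p = 0.201). The deposited table places Spata22 where the annotation has a further gene model, Gm49340, on the same strand, so its reads are uncertain. Meiob itself was on the higher side of control with Dppa2 siRNA, as given above. The 24 tested genes had median differences of 0.02 and 0.03, equal to those of all tested genes at this rounding.

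**Figure D5:**
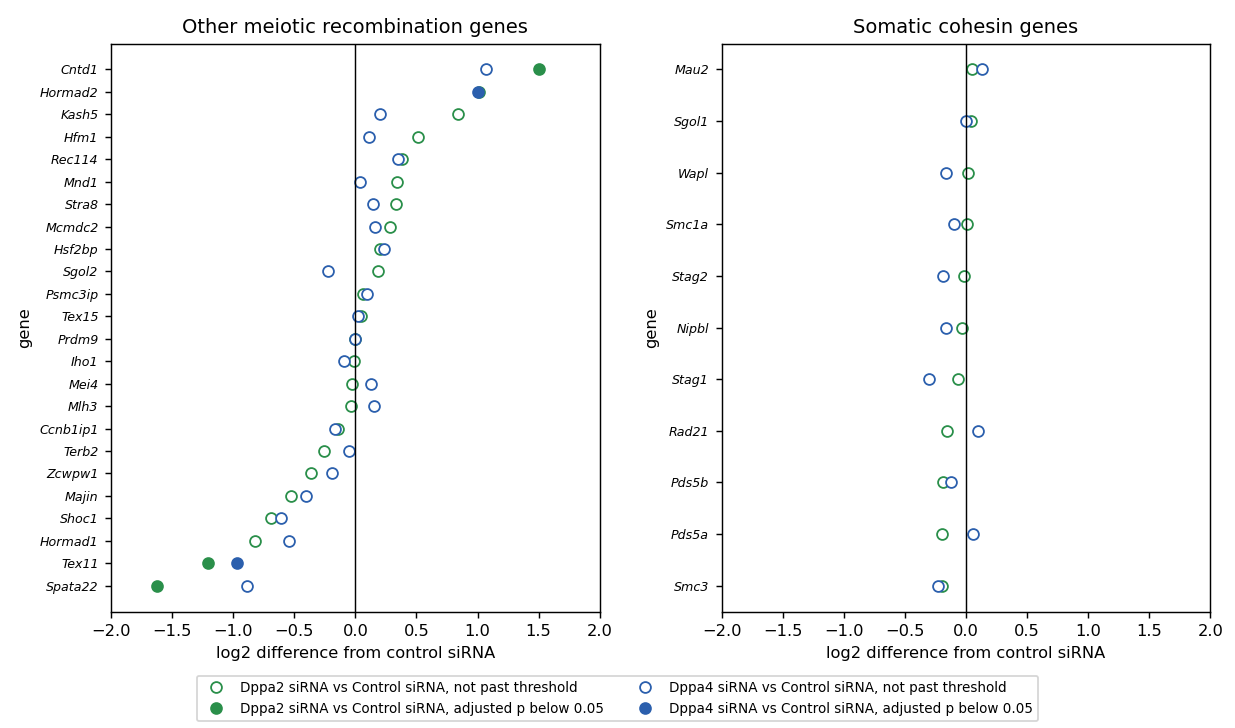
Log2 difference from control siRNA (horizontal axis) of 24 other meiotic recombination genes (left) and 11 somatic cohesin genes (right), green for Dppa2 and blue for Dppa4 siRNA, with filled points where the limma adjusted p was below 0.05. The left panel spans -1.63 to 1.501 and the right -0.30 to 0.13, and the filled Dppa2 point of Hormad2 lies behind the Dppa4 point.

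Of 8 general germ cell markers with a row 6 were tested, and 2 fell in both knockdowns, whereas Dnd1, Nanos3, Prdm1, and Kit passed in neither. The high-confidence background was 1.91% of tested genes with Dppa2 siRNA and 1.95% with Dppa4 siRNA, and the share in both was not worked out. Ddx4, the germ cell RNA helicase, fell by 1.91 and 1.19 on the log2 scale (limma adjusted p = 0.00156 and 0.0184), and Dazl, an RNA-binding protein of germ cells, fell by 2.36 and 2.19 (adjusted p = 0.00107 and 0.00185). Sycp1, the transverse filament of the synaptonemal complex, fell with Dppa2 siRNA by 3.29 (limma adjusted p = 0.0228) and differed by -2.06 with Dppa4 siRNA (adjusted p = 0.116). Sycp3, of the axis on which meiotic cohesin sits, differed by 0.35 and -0.48 and passed in neither. Sycp2 differed by -0.77 and -0.54 (limma adjusted p = 0.543 and 0.655) and also passed in neither. Whether the 10 members differ from these germ cell markers was not tested.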

How the data were processed

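RNA-seq of 9 libraries (3 per siRNA) was analysed. The authors trimmed reads with Trim Galore (version 0.4.5 in the submitters' processing notes), aligned the reads with HISAT2 2.0.5 (GRCm38), counted them by strand per mRNA with SeqMonk, and brought the 9 value distributions into line. The authors deposited normalized log2 expression for 25965 genes. Since the study's own count model needs raw counts, limma 3.58.1 in R 4.3.3 was fitted in its place (treatment only, with a trend of spread on expression) to genes with log2 above -2 in at least 3 of the 9 libraries (14601 genes), with Benjamini-Hochberg adjustment. High-confidence genes also passed a rebuilt intensity difference filter at 0.05 (normal model of the 1% nearest tested genes). Distributions were made equal although the knockdown libraries had more genes at 0 (9518 to 10187) than control (8423 to 9411), which can shift low values between treatments.

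Reads per gene were worked out from the ranks of a library's distinct values (1 step per read up to 300, then by slope) and are approximate. The limit for 0 reads (3 reads) covers counting error only. Levels per kb use all annotated exons of GRCm38 (GENCODE), and promoters are RefSeq's. The members and the lists were chosen with earlier results of these data known. All 10 members were named, with, of the other lists, the genes that passed the criteria and the closest somatic cohesin relatives. Some genes of the somatic list are not reported here. Genes most like a member that passed were to be named, and no member passed. Spata22, the named germ cell and synapsis markers, and the shares among relatives were chosen after their values were seen. The scripts were tested on simulated data. Python 3.11.15, numpy 2.4.6, pandas 2.3.3, and matplotlib 3.10.9 were used. Filters, scaling, pairing, pseudocount, call rule, and left-out libraries were varied.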

Additional observations from a re-analysis of the deposited data

How the results depend on the processing

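No member was called under any of the 18 alternatives in any comparison, and the adjusted p of Stag3 with Dppa4 siRNA ranged from 0.0579 to 0.267. Signs of small differences turned. On estimated reads scaled to library totals, added after seeing the data, Msh4 and Msh5 with Dppa4 siRNA were at -0.10 and -0.36, and Dmc1 between the knockdowns at -0.038. With 1 library left out, the log2 difference ran from -0.10 to 0.42 for Rec8 and from -0.16 to 0.084 for Smc1b (Dppa2 siRNA), and from -0.092 to 0.31 for Msh5 (Dppa4 siRNA). Between the knockdowns it ran from -0.048 to 0.10 for Dmc1, from -0.49 to 0.35 for Msh4, and from -0.11 to 0.056 for Hormad2.

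The 2 high-confidence calls among other meiotic genes with Dppa2 siRNA became 4 by limma alone, 1 with no filter, 0 with a pseudocount of 1, 0 with only the compared libraries, and 0 to 2 with 1 library left out. The 2 with Dppa4 siRNA became 0 with no filter, 1 with the pseudocount, 1 with only the compared libraries, and 0 to 2 with 1 library left out. The cause was not tested. With Dppa2 siRNA the count was 0 without Control B and 1 without Dppa2 A or C. The Dppa4 count became 0 on leaving out Control A, Control B, or any 1 Dppa4 library and 1 without Control C or Dppa2 A or C. By limma alone, the adjusted p of Tex11 stayed below 0.05 in 15 of 17 alternatives with Dppa2 siRNA and in 9 with Dppa4 siRNA. The replicate letters did not pair the libraries (2 of 9 same-letter correlations over 0.1, range -0.58 to 0.37), and with the replicate block the calls were 1 and 0. Members at 5 to 17 reads per library could show only large differences.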

Other observations

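The spread of Rec8 within treatments followed an order of the libraries that other genes also showed. In control libraries A, B, and C, Rec8 was at 1.95, 2.43, and 2.56 on the log2 scale, and Rad21 was at 7.95, 7.38, and 6.09. Pds5a, a cohesin regulator, was at 6.42, 5.59, and 3.57, Nipbl, the cohesin loader, at 5.92, 5.11, and 4.605, and Stag2 at 5.71, 5.001, and 4.65. Rad21, Pds5a, Nipbl, and Stag2 also had a common order with Dppa2 siRNA, highest in library B and lowest in A, and with Dppa4 siRNA, highest in C and lowest in A. Rec8 had the opposite order in all 3 treatments, and so did Mnd1, a strand exchange factor, which was at 4.63, 5.07, and 5.79 in control. The pattern was noticed in the values and these genes were chosen after seeing them, so no test is given, and what sets the libraries apart was not tested.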
